A study of Rattus norvegicus with 8 samples.

Results

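Reelin (Reln), a large glycoprotein secreted into the matrix, was examined together with its 2 receptors, the very low density lipoprotein receptor (Vldlr) and the apolipoprotein E receptor 2 (Lrp8), and the adaptor that the receptors hold inside the cell (Dab1). Members were the probe sets whose gene symbol in the platform's annotation was 1 of these 4. They stood for 3 of the 10411 named genes of the array and came to 6 of its 15923 probe sets, 2 for Reln, 3 for Vldlr and 1 for Lrp8. All 6 passed the filter on dim probe sets. No probe set was named for Dab1, so its expression is not analysed here. The members were chosen by the difference of Reln between hypoxic and normoxic pools in these same data, with its receptors and adaptor added by their role. Their values in that contrast are therefore a description and carry no test.

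The samples were adrenal glands of rat pups at postnatal day 7. In the hypoxic group, pups and dams had lived from birth in 12% O2, and in the normoxic group they had lived in room air. Dams of the normoxic group fed freely. The labels name neither strain nor sex. The glands had been stripped of their capsule, and each sample pooled 24 of them on 1 one-colour array, with 4 pools per group. The labels do not say which litters went into which pool, so p-values measure the spread between these pools, of which the assay is a part. With 4 arrays a group, that number sets the precision.

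Reelin is best known from the developing brain, where it is released by early neurons and guides the placement of migrating ones. It binds Vldlr and Lrp8, whose tails hold Dab1. Src family kinases, above all Fyn, then phosphorylate Dab1, and the signal runs on through Crk adaptors, phosphatidylinositol 3-kinase and Akt to the cytoskeleton. Outside the brain, reelin is known from chromaffin cells of the adrenal medulla, from liver and from lymphatic endothelium. Vldlr also takes up triglyceride-rich lipoproteins and is a known target of hypoxia-inducible factors, which bind DNA at a core that reads ACGTG or GCGTG.

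The stretch before the Reln gene is shown because Reln was the member past the threshold of the fit, and a short stretch of Vldlr because it was the receptor with higher values in hypoxic pools. Both are from the RefSeq promoter table of rat assembly GRCr8. In capitals are the matches to ACGTG or GCGTG on either strand.
Reln, chr4:13628318-13628439, plus strand: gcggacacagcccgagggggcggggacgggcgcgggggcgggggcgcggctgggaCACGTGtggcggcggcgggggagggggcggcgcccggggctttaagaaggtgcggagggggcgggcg
Vldlr, chr1:234240662-234240685, plus strand: gaggagtagaGCGTGcaagttgca
The 122 bases of Reln end where the outermost RefSeq transcript begins. The table's own start site lies 128 bases further on. The 24 bases of Vldlr lie just before the table's start site, which is 917 bases inside the gene's outermost bounds.

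In the 250 bases before the table's start site, Reln held 2 matches to ACGTG, which overlap on opposite strands in the palindrome CACGTG, and 1 match to GCGTG. That GCGTG match lies 30 to 26 bases before the table's start site, on the minus strand. It is thus inside the bounds of the outermost transcript and not among the bases printed above. Vldlr held 1 match to GCGTG. Lrp8 had no window there, so the receptor with overlapping groups could not be compared. For Dab1, 1 match to GCGTG lay before the first start site listed and 0 matches before the second. Of 33469 rat promoter windows of the same length, 36.7% held at least 1 match to ACGTG or GCGTG, 6.21% held at least 3 and 5.59% held CACGTG. The Reln window had 41 CpG dinucleotides, a number reached by 0.98% of the windows, whose median was 5. Vldlr had 30, reached by 5.35%. Both cores contain a CpG, and the windows compared were not matched for CpG number. Matches were counted on both strands, so a CACGTG counts as 2 of them. A match is only a run of letters, and whether any factor bound there was not measured.

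The measurements were intensities in arbitrary units, brought by the authors to a common mean per array. The array medians lay between 228.2 and 248.7. Probe sets for bacterial genes, which match no rat transcript, reached 83.5 at most and stayed under 46.7 in 95% of values. Every one of the 6 member probe sets lay above 83.5 on all 8 arrays. Defining markers of both parts of the gland were bright: the normoxic means were 11902 for the cortical gene Star and 8743 for the chromaffin gene Th, and the hypoxic means 11761 and 9573.

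Reln, the ligand, was higher in hypoxic pools on both of its probe sets. On 1373957_at the normoxic pools 1 to 4 read 1031.2, 940.8, 974.4 and 977.2, and the hypoxic pools 1505.1, 1550.0, 1301.7 and 1683.9. The groups did not overlap: the lowest hypoxic pool, pool 3, lay above the highest normoxic pool, pool 1. The normoxic pools lay close together, with a mean of 981 ± 37.4, while the hypoxic pools were spread more widely at 1510 ± 158 (SD, n = 4 each). The ratio of the means was 1.54. On the scale of log2(intensity + 16), which understates changes of dim probe sets, the difference was 0.61 with a standard error of 0.10.

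The second Reln probe set, 1369093_at, gave dimmer values with the same order of groups. Normoxic pools 1 to 4 read 168.2, 218.9, 248.0 and 247.1, and hypoxic pools 320.7, 428.3, 272.1 and 420.0. Hypoxic pool 3 was again the lowest of its group and stood not far above normoxic pools 3 and 4. Means were 221 ± 37.4 and 360 ± 76.5 (SD, n = 4 each), a ratio of 1.63, and the log2 difference was 0.66 with a standard error of 0.17. The pools of a group scattered more on this probe set than on the brighter one, with a within-group SD of 0.27 against 0.11 on the log2 scale.

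**Figure D1:**
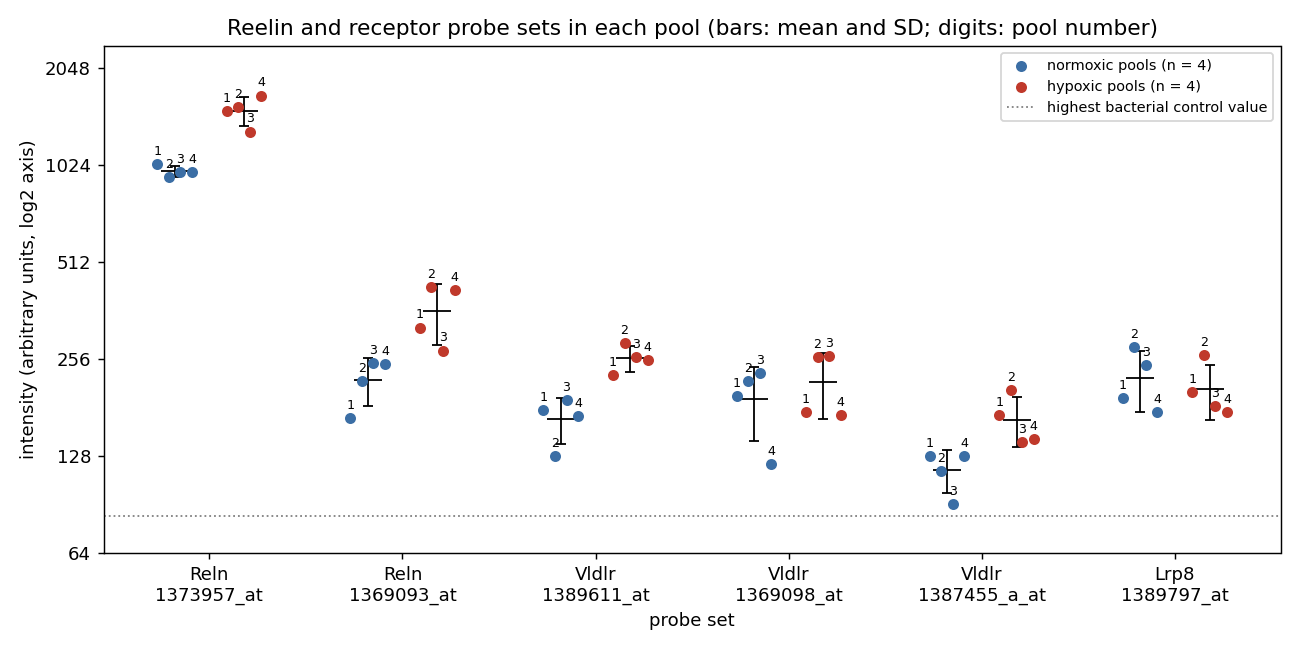
Intensity in arbitrary units (log2 axis) of the 6 member probe sets in each of the 4 normoxic (blue) and 4 hypoxic (red) pools; bars give the mean and SD, digits the pool number, and the dotted line the highest bacterial control value. The hypoxic pools lie above all normoxic pools for both Reln probe sets and for Vldlr 1389611_at and 1387455_a_at, and the groups overlap for Vldlr 1369098_at and for Lrp8.

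Vldlr, the receptor that also takes up lipoproteins, was higher in hypoxic pools on 2 of its 3 probe sets. On 1389611_at normoxic pools 1 to 4 read 177.8, 128.1, 190.6 and 169.9, and hypoxic pools 228.8, 286.7, 260.6 and 254.9. No hypoxic pool fell within the normoxic range. Means were 167 ± 27.0 and 258 ± 23.8 (SD, n = 4 each), a ratio of 1.55, and the log2 difference was 0.59 with a standard error of 0.15.

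On Vldlr 1387455_a_at, the dimmest member, normoxic pools read 128.4, 115.1, 91.0 and 128.1 and hypoxic pools 171.8, 205.8, 141.4 and 144.7. The groups stood apart here too, with hypoxic pools 3 and 4 near the upper normoxic pools. The log2 difference was 0.46 with a standard error of 0.17. The third Vldlr probe set, 1369098_at, did not share the separation. Its normoxic pools read 197.1, 218.5, 231.1 and 121.3 and its hypoxic pools 175.9, 258.9, 261.7 and 171.7. Hypoxic pools 1 and 4 lay below 3 of the normoxic pools, and normoxic pool 4 was the lowest of all. The log2 difference was 0.17 with a standard error of 0.21, and -0.01 without normoxic pool 4. Which transcripts each Vldlr probe set reads was not examined.

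Lrp8, the other reelin receptor, had overlapping groups. Normoxic pools 1 to 4 read 194.3, 279.0, 244.8 and 175.0, and hypoxic pools 202.1, 263.7, 183.1 and 175.6. In each group pool 2 was the highest and pool 4 the lowest. The means were 223 ± 47.4 and 206 ± 40.0 (SD, n = 4 each), and the log2 difference was -0.10 with a standard error of 0.17 and a 95% interval from -0.48 to 0.28. It was 0.01 without normoxic pool 2.

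In order of the log2 difference, Reln 1369093_at came first, then Reln 1373957_at, Vldlr 1389611_at, Vldlr 1387455_a_at, Vldlr 1369098_at and Lrp8. The first 4 of these differed from each other by less than 2 of their standard errors, so that order says little. In the limma fit over all probe sets, 1 of the 6 member probe sets, Reln 1373957_at, was past an adjusted p of 0.05 as higher, where 0.117% of the 11106 tested were. The 4 hypoxic pools lay above the 4 normoxic ones for 4 of the 6, where 2.76% of all tested probe sets did so. Nothing is read from either count, since the members were chosen with this contrast known. The call of Reln 1373957_at was lost, leaving 0 of the 6, when any pool other than hypoxic pool 1 was left out. Its log2 difference then ran from 0.56 without hypoxic pool 4 to 0.68 without hypoxic pool 3. Over the whole table there were 20 calls, or 0.180% of probe sets. With a normoxic pool left out the count was 1 for pool 4 and 0 for each of the others. With a hypoxic pool left out it was 31 for pool 1, 2 for pool 4 and 0 for each of the others. Intactness of the RNA, read as the 5' over 3' signal of Gapdh, had a mean of 0.665 ± 0.0646 over normoxic and 0.609 ± 0.0423 over hypoxic pools (SD, n = 4). With it as a covariate the log2 difference of Reln was 0.68 on 1373957_at and 0.83 on 1369093_at, the call was lost, and that of Vldlr 1369098_at was 0.00. The same signal of beta-actin had means of 0.607 ± 0.143 and 0.495 ± 0.190, with hypoxic pool 1 lowest at 0.249. With it as a covariate, a setting added after the data were seen, the difference of Reln was 0.58 and 0.71 on these probe sets, the call stood, and Vldlr 1369098_at was at 0.24.

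**Figure D2:**
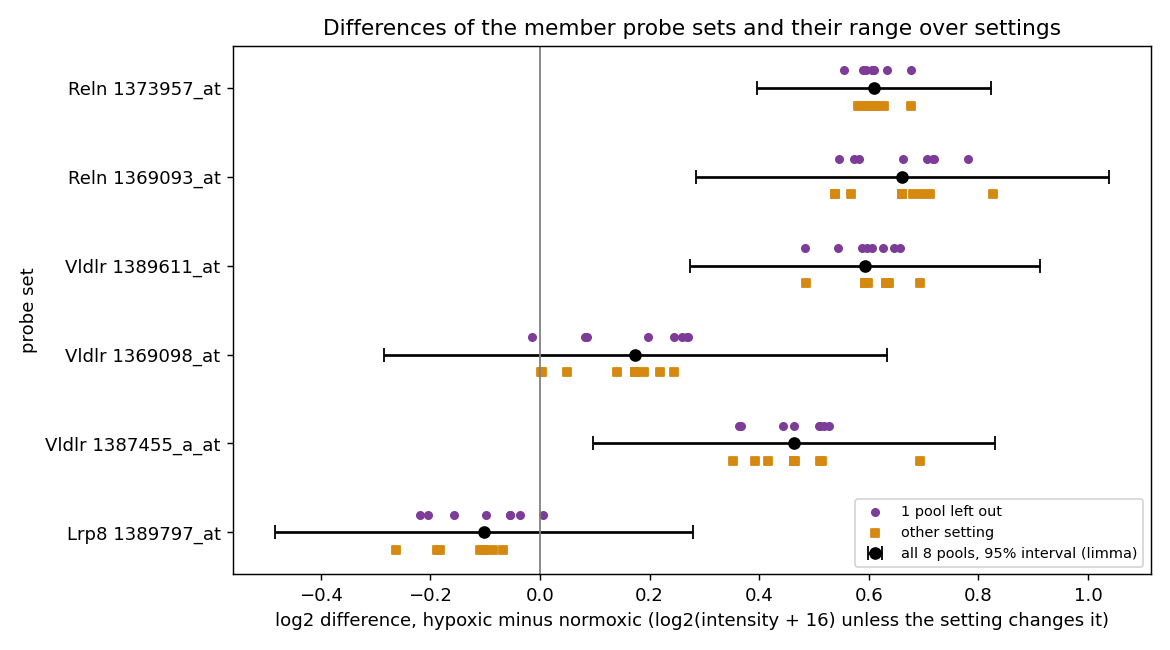
Log2 difference (hypoxic minus normoxic, log2 of intensity + 16 unless the setting changes it) of each member probe set with its 95% interval over all 8 pools (black), with 1 pool left out (purple) and under other settings (orange). Both Reln probe sets and Vldlr 1389611_at and 1387455_a_at stay above 0 under every setting drawn, while Vldlr 1369098_at and Lrp8 touch or cross 0.

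The rest of the pathway was taken from 8 lists of genes that act before, beside or after the members. Of 112 genes listed, 90 had a probe set of their own and 76 passed the filter. In limma adjusted over all probe sets 0 of the 76 were called higher and 0 lower, where 0.225% of 8011 named genes passed. At an unadjusted p under 0.05 there were 5 of the 76, a share below the 8.56% of named genes that had one. Of the 76, 32 had a log2 difference above 0, and their median was -0.01, the same as the median over all named genes. Each gene is given at its brightest tested probe set.

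Upstream of the receptors, 0 of the genes that cut, release or restrain reelin passed the test. At their brightest probe sets, differences of the 4 that could be tested were all above 0 on the log2 scale, from 0.03 to 0.13 (median 0.12). They were Timp3, an inhibitor of the metalloproteinases that cut reelin (log2 0.13, adjusted p = 0.785 in limma), Plat, the tissue plasminogen activator (0.12, adjusted p = 0.870), and the proprotein convertase genes Pcsk6 (0.11) and Furin (0.03). The probe sets of Timp3 disagreed, and the dimmer ones read -0.51 with a standard error of 0.28, -0.11 and 0.05 (adjusted p from 0.662 to 0.909). No probe set was named for Adamts2, Adamts3, Adamts4 or Adamts5, the proteases of that family listed here.

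Among 6 genes for other ligands of these receptors, with a median of -0.05, Apoe, the apolipoprotein that gave Lrp8 its other name, went from 15114 ± 2364 to 14446 ± 2300 (SD, n = 4; log2 -0.06, adjusted p = 0.936 in limma). Clu, the gene of clusterin, had a log2 difference of 0.27 with a standard error of 0.14 (adjusted p = 0.631), and Lrpap1, the chaperone of the receptor family, one of -0.11 (-0.19 on its second probe set). Of 11 related lipoprotein receptor genes, 4 lay above 0, with a median of -0.06. Lrp1, the large endocytic receptor, differed by -0.06, Lrp6, a Wnt co-receptor, by -0.17, Lrp3 by -0.26 and Sorl1 by -0.10, with adjusted p from 0.734 to 0.928 in limma. The dimmer probe sets of Sorl1 went the other way, at 0.10 and 0.21.

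Genes that decide how long the receptors stay on the surface gave no call. Mylip, the ubiquitin ligase that sends Vldlr and Lrp8 for breakdown, measured 349 ± 34.3 in normoxic and 347 ± 47.7 in hypoxic pools (SD, n = 4; log2 -0.01, adjusted p = 0.989 in limma). Snx17, a sorting protein that returns receptors of this family to the surface, differed by 0.22 with a standard error of 0.13 (adjusted p = 0.672). In the same list of 10 genes, with a median of 0.08, Apbb1, which binds the amyloid precursor protein tail, differed by 0.22 and Efnb1, an ephrin, by -0.30 (adjusted p = 0.728 and 0.613). The second probe set of Efnb1 read -0.43 with a standard error of 0.37.

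Below Dab1, most of the kinase and adaptor genes had differences near or below 0. Fyn, the main kinase of Dab1, measured 493 ± 28.4 and 520 ± 77.7 (log2 0.06, with a second probe set at -0.15), Src differed by -0.08 (0.06 on its second tested probe set) and Crk, the adaptor that binds phosphorylated Dab1, by 0.04. A dimmer probe set of Crk went the other way, from a mean of 190 to one of 98.7 (log2 -0.75, standard error 0.29, adjusted p = 0.487 in limma). Of 17 tested, 5 lay above 0, and the median was -0.11. Akt2 had the lowest p of the list, from 1266 ± 81.2 to 1003 ± 134 (SD, n = 4 each; log2 -0.34, adjusted p = 0.395 in limma), and its other probe sets read -0.63 each. Pik3r2, a regulatory subunit of phosphatidylinositol 3-kinase, differed by -0.33 (adjusted p = 0.511; -0.45 on its second probe set) and Rap1b, the small GTPase on the Crk branch, by -0.20 (adjusted p = 0.561). Gsk3b, the kinase that Akt holds in check, differed by 0.02.

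The machinery that removes phosphorylated Dab1 is a ubiquitin ligase built on Cul5. Cul5 itself differed by -0.02. Of the 10 tested genes of this list, 3 lay above 0, with a median of -0.02. Rnf7, its RING partner, differed by -0.24 (adjusted p = 0.622 in limma), Eloc, an elongin that joins substrate receptors to it, by 0.18 (adjusted p = 0.649), and Socs2 by -0.30 (adjusted p = 0.711).

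Among the cytoskeletal genes 1 came close to the threshold. Map1b, a microtubule-associated protein of growing axons, measured 469 ± 36.0 in normoxic and 693 ± 34.2 in hypoxic pools (SD, n = 4 each), with no overlap between groups, a log2 difference of 0.55 with a standard error of 0.10 (adjusted p = 0.0669 in limma). Its second probe set was below the filter, with means of 58.2 and 59.0. Mapt, the gene of tau, differed by 0.27 (adjusted p = 0.564), and by 0.33 and 0.25 on its other probe sets. Pafah1b1, which encodes LIS1, a dynein regulator, differed by -0.06 on its brightest probe set and by -0.75 with a standard error of 0.32 on a dimmer one (adjusted p = 0.895 and 0.546). Cdk5, a kinase that acts in parallel to reelin on neuronal migration, differed by -0.06, and its activator gene Cdk5r1 was below the filter. Nde1, a partner of LIS1, differed by -0.17. The 13 tested genes had a median of 0.00, with 5 above 0. Of the 5 tested genes tied to transcription of Reln, 2 lay above 0 (median -0.01), among them the DNA methyltransferase gene Dnmt1, with a log2 difference of 0.23 (adjusted p = 0.636). Creb1 differed by -0.12 and Hdac1 by -0.10.

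**Figure D3:**
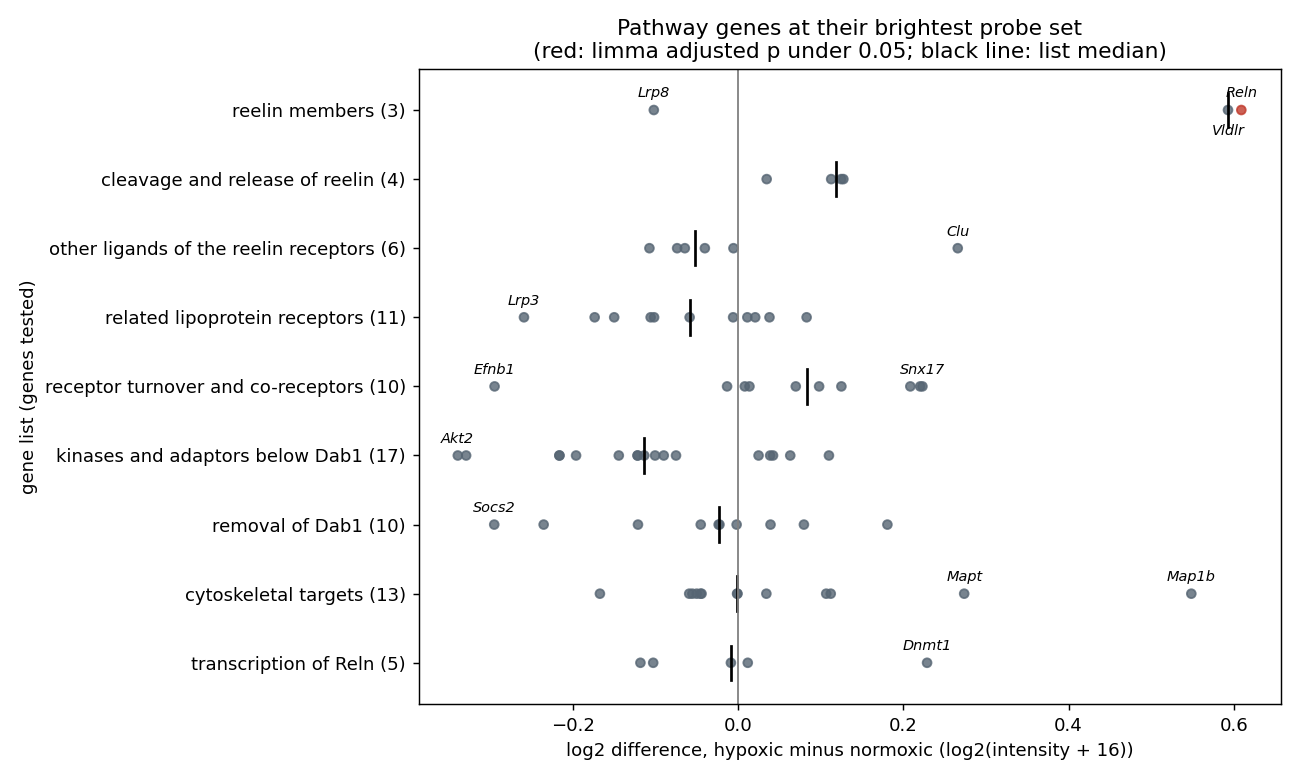
Log2 difference (hypoxic minus normoxic, log2 of intensity + 16) of each tested gene at its brightest probe set, by list, with the number of genes in brackets and a black line at the list median. Reln is the 1 gene past the threshold (red), Map1b is the pathway gene farthest above 0 at 0.55, and Akt2 the farthest below at -0.34.

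Genes of chromaffin cells and lymphatic endothelium, in which reelin is known, and of other cells and organs were set beside these values. In bulk tissue, fewer cells of a type and less RNA per cell cannot be told apart. At their brightest probe sets the 14 tested chromaffin genes all lay above 0, from 0.003 to 0.98, where 47.5% of named genes did. The median was 0.18. Of these genes 1 was called higher, the vesicular monoamine transporter gene Slc18a2 (log2 0.98, adjusted p = 0.0318 in limma), with a second probe set at 0.61. Over all named genes 0.225% passed in either direction. A dimmer probe set of Ddc read -0.06, against 0.36 on its brightest. The summed intensity of the 14 genes ran from 39215 to 51519 in normoxic and from 45535 to 62477 in hypoxic pools. The mean log2 value of the list was 10.8 ± 0.171 and 11.1 ± 0.182 (SD, n = 4), a difference of 0.26, and the groups overlapped. Hypoxic pool 1, with a chromaffin mean of 10.84, lay below normoxic pools 2 and 3, at 10.95 and 10.92. Its Reln value on 1373957_at was 1505.1, above every normoxic pool, as were those of all hypoxic pools. Hypoxic pool 4 had the highest chromaffin mean of all pools, 11.25, and the highest Reln value on 1373957_at, while hypoxic pool 3, next at 11.14, had the lowest Reln value of its group on both probe sets. Hypoxic pool 2, at 10.97, had the highest Reln value on 1369093_at. With the chromaffin mean as a covariate the log2 difference of Reln was 0.63 on 1373957_at, where the call was lost, and 0.54 on 1369093_at. That of Vldlr was 0.63, 0.69 and 0.00 on 1389611_at, 1387455_a_at and 1369098_at. Log2 deviations from the group means over the 8 pools were also correlated with those of the chromaffin mean. For Reln the Pearson correlation was -0.11 on 1373957_at and 0.30 on 1369093_at. For Vldlr it was -0.14 on 1389611_at, 0.33 on 1369098_at and -0.72 on 1387455_a_at. The chromaffin mean differed between the groups as well, and the part of the chromaffin genes in the values of Reln and Vldlr was not tested.

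**Figure D4:**
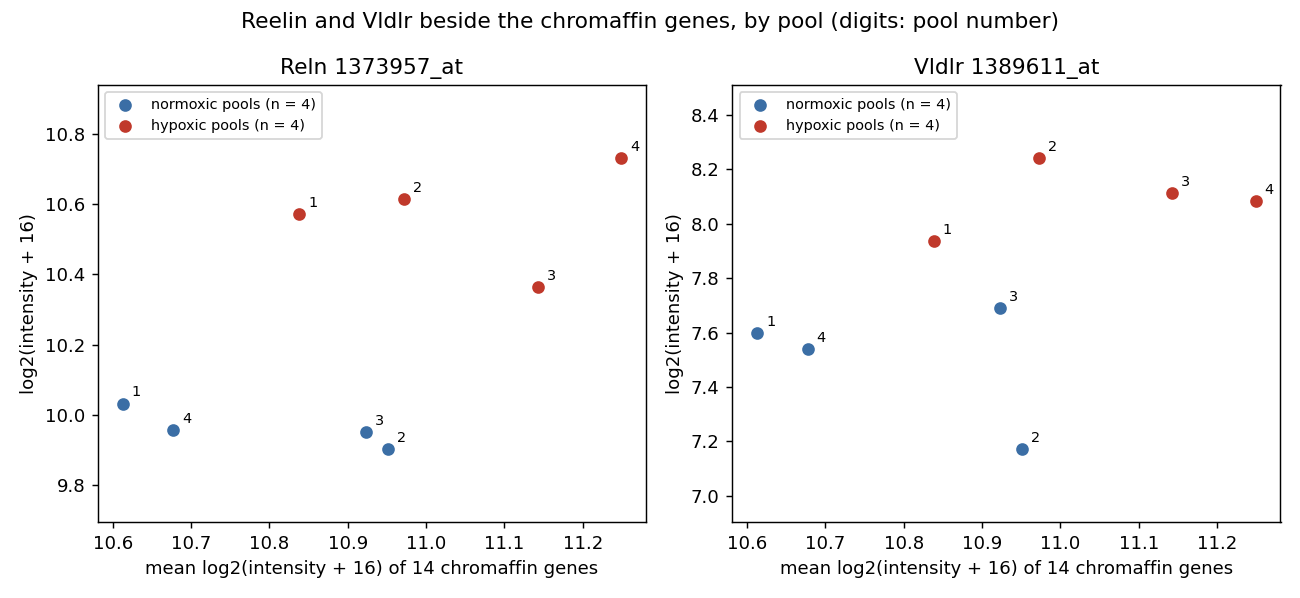
Log2(intensity + 16) of Reln 1373957_at (left) and Vldlr 1389611_at (right) in each pool, against the mean log2(intensity + 16) of 14 chromaffin genes; blue points are normoxic and red points hypoxic pools, with pool numbers. The groups overlap along the chromaffin axis and do not overlap along the Reln or Vldlr axis.

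Among 5 tested lymphatic genes 0 passed limma over all probe sets, and 1 had an unadjusted p under 0.05, where 8.56% of named genes had one. The lymphatic gene with that p was Lyve1, the hyaluronan receptor of lymphatic endothelium. It measured 359 ± 28.1 in normoxic and 474 ± 85.7 in hypoxic pools (SD, n = 4 each, log2 0.37, adjusted p = 0.432 in limma). Prox1, the transcription factor that defines that cell type, differed by -0.15, and the list's median was 0.03 with summed intensity from 1035 to 1286 and from 1162 to 1355. Liver and kidney genes were listed as markers of these organs, not of cells that make reelin. The 4 tested, Alb, Serpina1, Ttr and Miox, had a median of 0.01. Their summed intensity ran from 706 to 1719 and from 686 to 2789. The part of these genes in the values of Reln was not tested.

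Genes of neurons and their processes were set beside them too. Whether chromaffin cells express the same genes was not examined. Of 11 tested, 10 were above 0, where 47.5% of named genes were, and the median was 0.34. The heavy neurofilament gene Nefh was the 1 called higher (log2 1.23, adjusted p = 0.0325 in limma), where 0.225% of named genes passed in either direction. The summed intensity of the 11 genes ran from 5081 to 6427 in normoxic and from 6324 to 7299 in hypoxic pools. Their part in the values of Reln was not tested. In the other lists of cell markers 0 genes passed. Cortical genes (9 tested) had a median log2 difference of 0.01, blood endothelial genes (7) one of -0.01, Schwann and glial genes (5) -0.03, fibroblast and capsule genes (9) 0.09, leukocyte genes (7) -0.27, adipocyte genes (6) -0.40 and red cell genes (3) 0.42. With the adipocyte mean as a covariate the log2 difference of Reln was 0.60 on 1373957_at, where the call was lost, and 0.54 on 1369093_at. That of Vldlr was 0.60, 0.47 and 0.05 on 1389611_at, 1387455_a_at and 1369098_at, and that of Lrp8 -0.26.

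The genes whose pools varied most like a member's within the groups were found by the Pearson correlation of log2 deviations from the group means over the 8 pools, a measure that leaves the contrast out. For Reln 1373957_at these were F2r, a thrombin receptor (0.97), Polr1c, an RNA polymerase subunit (0.96), Sec63, a translocation factor of the endoplasmic reticulum (0.96), the semaphorin co-receptor gene Plxna1 (0.96) and the RNA demethylase gene Alkbh5 (0.95). For Vldlr 1389611_at they were Hunk (0.98), Arhgef10 (0.98) and Mettl13 (0.96), and for Lrp8 Ap3m2 (0.97), Colq (0.96) and Hoxb7 (0.95). On Reln 1373957_at the hypoxic pools were spread more widely (SD 158 against 37.4), so they weigh most in its values. Of 8010 genes compared, 37 reached a value above 0.9 with Reln, 20 with Vldlr and 12 with Lrp8. Such counts were not taken for other genes. No member was among the nearest genes of another. By the same measure the 2 Reln probe sets correlated at 0.51 with each other. The 3 Vldlr probe sets correlated at 0.15, -0.01 and -0.20 among themselves. Likeness to 1 probe set therefore need not hold for the gene. With 8 pools such values are a description of these arrays.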

How the data were processed

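The deposited table held probe set intensity values, made by the authors and scaled by them to a common trimmed mean (500.1 on each array, seen in the values themselves). No source used here names the summarising software. Symbols were those of the platform's annotation, where 12783 of 15866 probe sets without controls had 1 symbol, 312 several and 2771 none. Probe sets with several symbols named no gene. A floor of 1 was applied, then log2(value + 16) was taken. Array medians lay within 0.117 on that scale, so no further normalization was made. Probe sets with a mean under the 30th percentile (intensity 95.2) were left out. Hypoxic and normoxic pools were compared over 11106 probe sets in R 4.3.3 by two-sided limma 3.58.1 (lmFit, then eBayes with a trend of the variance), at a Benjamini-Hochberg adjusted p of 0.05. The steps were tested on simulated data. Python 3.11.15, pandas 2.3.3 and matplotlib 3.10.9 were used for sequences and plots.

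Members and gene lists were chosen with earlier results of these data known. Genes named are every member probe set, up to 3 of lowest p in each pathway list with a fixed panel, some of each cell list by the same measure or from a fixed panel, and the nearest genes in pattern. Other tested probe sets of the named pathway genes, and the values of Ddc, were added after they were seen. Alternatives were the filter, trend, offset, quantile normalization, each pool left out, the replicate number as a block, and 3 covariates (Gapdh 5' over 3' ratio, chromaffin mean, adipocyte mean). The beta-actin ratio as a covariate was added after the data were seen.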

Additional observations from a re-analysis of the deposited data

How the results depend on the processing

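The number of member probe sets past the threshold, 1, was 0 with no filter, with no variance trend, with the replicate number as a block, and with the Gapdh ratio, the chromaffin mean or the adipocyte mean as a covariate, and lay between 0 and 1 with 1 pool left out. The number over all probe sets, 20, was 0 with no filter, no trend, the Gapdh ratio or the chromaffin mean, 9 with the adipocyte mean, 37 with the beta-actin ratio (added after the data were seen), and from 0 to 31 with 1 pool left out. It was 18 with the replicate block. Deviations of pools with the same number correlated at 0.32, 0.00, 0.19 and -0.04. Pools of unlike number were not compared, so these values do not decide whether pools were paired. The beta-actin ratio had the same order of pool numbers in both groups. Pool 1 was lowest (0.413 normoxic, 0.249 hypoxic) and pool 3 highest (0.744 and 0.713). The number of pathway genes past the threshold was 0 in limma under each of the 19 alternatives. Among the members, Vldlr 1387455_a_at moved by more than its spread under the chromaffin mean, to 0.69. Reln ran from 0.56 to 0.68 on 1373957_at and from 0.54 to 0.83 on 1369093_at over all settings tried. Of the others, Vldlr 1369098_at ran from -0.01 to 0.27 and Lrp8 from -0.26 to 0.01, so their signs were not fixed. Under the 50th percentile filter Vldlr and Lrp8 were not tested.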
